A study of Drosophila melanogaster with 3 samples.

Results

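The peaks described here are the binding sites of the Drosophila protein CG11695 that lay in sequence between genes and away from promoters. They were taken from the conservative peak list that the authors deposited for the whole series. A peak was counted when its summit, the base at which the authors placed the peak's maximum, lay outside every gene of the Ensembl BDGP6 annotation and more than 500 bp from any transcription start site (TSS). Peaks on the 6 main chromosome arms were used, with 1 record per summit. Of 4770 peaks, 589 met the rule, which is 12.3% of the list. Location was the only rule used within that list, but the list itself held peaks that had already passed the authors' threshold on reproducibility, so signal and recurrence had been filtered for every class alike. The annotation lists insertions of transposable elements as genes, and the rule was applied to them as to any gene. Without them, 14 further peaks would have counted, giving 603.

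Chromatin immunoprecipitation and sequencing had been performed on whole embryos collected 0 to 24 hours after egg laying. All samples came from transgenic flies of the strain CG11695-GFP, which express CG11695 fused to eGFP, a green fluorescent protein, and antibodies against GFP pulled down the tagged protein. Sonicated fragments of 200 to 800 bp were used for 3 biological replicates, which form 1 group. No other genotype, stage or input library was analysed here, whole embryos mix all tissues, and the driver of the transgene is not given in the sources used here.

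CG11695 belongs to a large family of insect proteins that bind DNA through C2H2 zinc fingers, each finger reading a few bases. In the compact fly genome, sequence between genes holds enhancers, silencers and insulators, and many enhancers of developmental genes lie there. Binding far from a promoter is one of the features by which such elements are searched for, although binding alone does not show that a site regulates a gene.

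The sequences of the strongest sites are shown first, because their composition and their short words recur below. Each reaches 100 bp to either side of the summit, which is the middle base, and was read 5′ to 3′ on the plus strand of the RefSeq genome, assembly dm6. Capitals mark CAGTG or CACTG, which are the same 5-base word on opposite strands. The first 6 rank 2 to 7 by signal among the intergenic peaks, and all recurred in the lists of the 3 replicates. The last 3 are the next recurring peaks of these arms that hold the 8-base word CACTGAGA on either strand.
Intergenic peak of rank 2, CG7573 to CG6168, chr3L:11318854-11319054: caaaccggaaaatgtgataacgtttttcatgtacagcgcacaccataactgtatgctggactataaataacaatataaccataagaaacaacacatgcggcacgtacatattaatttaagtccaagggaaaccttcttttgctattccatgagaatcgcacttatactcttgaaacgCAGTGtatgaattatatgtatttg
Intergenic peak of rank 3, mtSSB to tara, chr3R:16222394-16222594: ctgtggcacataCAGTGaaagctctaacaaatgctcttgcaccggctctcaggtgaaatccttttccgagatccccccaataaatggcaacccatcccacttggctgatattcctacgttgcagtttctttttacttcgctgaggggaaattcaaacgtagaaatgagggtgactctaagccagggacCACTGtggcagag
Intergenic peak of rank 4, RFeSP to chinmo, chr2L:1632735-1632935: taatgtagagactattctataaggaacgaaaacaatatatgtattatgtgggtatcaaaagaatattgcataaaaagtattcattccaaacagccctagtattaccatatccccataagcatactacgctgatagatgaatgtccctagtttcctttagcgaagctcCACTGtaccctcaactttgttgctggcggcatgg
Intergenic peak of rank 5, RFeSP to chinmo, chr2L:1638695-1638895: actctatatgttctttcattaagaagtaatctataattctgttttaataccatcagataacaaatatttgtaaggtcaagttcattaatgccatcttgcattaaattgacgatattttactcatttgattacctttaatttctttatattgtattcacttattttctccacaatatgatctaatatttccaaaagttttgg
Intergenic peak of rank 6, COX7AL2 to CG31668, chr2L:2202297-2202497: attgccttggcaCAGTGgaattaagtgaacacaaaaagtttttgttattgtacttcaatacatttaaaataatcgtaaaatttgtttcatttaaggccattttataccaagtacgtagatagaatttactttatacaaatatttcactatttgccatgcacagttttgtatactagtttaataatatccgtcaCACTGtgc
Intergenic peak of rank 7, RFeSP to chinmo, chr2L:1643324-1643524: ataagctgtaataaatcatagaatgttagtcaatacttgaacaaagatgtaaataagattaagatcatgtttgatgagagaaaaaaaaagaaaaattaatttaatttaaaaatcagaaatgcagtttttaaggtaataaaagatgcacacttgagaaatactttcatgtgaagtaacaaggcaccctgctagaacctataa
Intergenic peak of rank 25, slp1 to slp2, chr2L:3832391-3832591: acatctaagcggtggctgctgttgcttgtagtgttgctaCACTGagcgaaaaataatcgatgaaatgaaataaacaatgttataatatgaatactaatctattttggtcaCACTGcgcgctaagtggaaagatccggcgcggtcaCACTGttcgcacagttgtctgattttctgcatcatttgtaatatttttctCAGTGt
Intergenic peak of rank 28, noc to CG33648, chr2L:14502664-14502864: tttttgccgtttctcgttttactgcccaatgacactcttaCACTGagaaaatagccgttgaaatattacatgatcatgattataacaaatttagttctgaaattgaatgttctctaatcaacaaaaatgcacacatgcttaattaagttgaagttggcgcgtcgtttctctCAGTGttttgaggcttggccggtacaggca
Intergenic peak of rank 52, CG10089 to stv, chr3L:13476828-13477028: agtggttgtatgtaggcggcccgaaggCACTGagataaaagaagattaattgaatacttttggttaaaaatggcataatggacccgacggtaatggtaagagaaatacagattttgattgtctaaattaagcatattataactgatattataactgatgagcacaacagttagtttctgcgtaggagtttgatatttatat

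The middle of most of these stretches is rich in A and T, and where the capital word occurs it tends to stand toward an edge. In the peak of rank 3, the word's centre lay 86 bp to the left and 90 bp to the right of the summit. At the peak of rank 6, it lay 86 bp to the left and 95 bp to the right. The peak of rank 4 held it once, 69 bp to the right, and the peak of rank 2 once, 79 bp to the right. The peaks of rank 5 and rank 7, both in the gap between RFeSP and chinmo, did not hold it within 100 bp of the summit. The peak of rank 25, between the forkhead genes slp1 and slp2, held it 4 times. G+C content over the 9 stretches ran from 24.9% to 48.3%.

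The 3 replicates differed in how many of these sites their own lists kept. A replicate's own list is the thresholded list deposited with that sample, and it held 3404, 2774 and 2716 peaks in replicates 1, 2 and 3. Of these, 395, 335 and 292 were intergenic by the same rule, or 11.6%, 12.1% and 10.8%, a mean of 11.5% ± 0.672 (SD, n = 3). Not 1 record of the main list was found unchanged in its ends, summit and signal among the longer ranked list of any replicate, so the main list's values are not those of a single replicate. The main list was nonetheless made from the same libraries, so overlap with the own lists describes recurrence and is not independent evidence.

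Of the 589 intergenic peaks, 175 overlapped a peak of every own list by 1 bp or more, which is 29.7%. Among all 4770 peaks of the main list the share was 36.8%. A further 125 were found in 2 own lists, 137 in 1 and 152 in none. By replicate, 59.8%, 49.1% and 46.0% of the intergenic peaks overlapped a peak of the own list of replicates 1, 2 and 3. Intronic peaks beyond 2000 bp from a TSS, the class most like them, reached 63.4%, 48.8% and 47.7%. The difference averaged -1.68 percentage points ± 1.98 (SD, n = 3) and changed sign among replicates (exact sign-flip permutation test, two-sided, p = 0.5). Against promoter peaks, whose summit lies at most 500 bp from a TSS, the share was lower in all 3 replicates, with differences of -4.2, -3.31 and -9.85 points. That test gave p = 0.25, the smallest value that an exact sign-flip permutation test over 3 replicates allows, so no contrast over replicates here can reach 0.05.

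**Figure D1:**
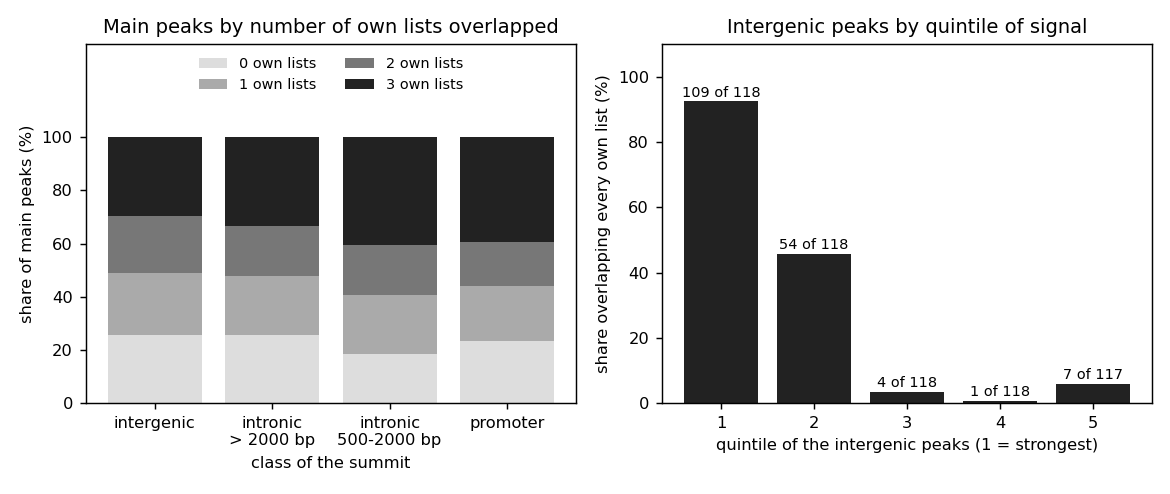
Left, the share of main peaks (%) in each class of location that overlapped a peak in 0, 1, 2 or 3 replicates' own lists: 29.7% of intergenic and 39.4% of promoter peaks overlapped all 3. Right, the share of intergenic peaks (%) that overlapped every own list, by quintile of signal: 109 of 118 in the strongest quintile and 4 of 118 in the middle one.

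Recurrence followed the strength of the peak. In the strongest quintile, with signal values from 184 to 1314, 109 of 118 intergenic peaks overlapped every own list. In quintile 2, from 134 to 184, 54 of 118 did, and in quintiles 3 and 4 it was 4 and 1 of 118. The weakest quintile, from 2.34 to 81.4, held 7 of 117. Its lowest values came largely from records that stand beside a stronger one. All 45 intergenic peaks of signal under 50 were 380 bp wide, as were 476 of the 589. Of these 45, 41 lay within 250 bp of a stronger record. In all, 49 intergenic records had such a neighbour, and the median gap between the summits was 202 bp. That neighbour had the lower coordinate in all 49 cases and an equal score in 46. Merging them leaves 540 intergenic peaks.

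Signal differed from that of distant intronic peaks by less than the spread between replicates. The signal value is the authors' own, on a scale that is not stated, and is compared only within a list. Its median in the main list was 115 for intergenic peaks, with quartiles of 89.4 and 168, 117 for intronic peaks beyond 2000 bp, 123 for intronic peaks 500 to 2000 bp from a TSS and 123 for promoter peaks. The median of intergenic peaks in the own lists was 57.4, 54.1 and 50.1 in replicates 1, 2 and 3, beside 57.4, 52.9 and 51.5 for distant intronic peaks. The difference of the median log2 signal averaged -0.0021 ± 0.037 (SD, n = 3), with no common sign (exact permutation p = 1). Against promoter peaks, the median log2 signal differed by -0.203, -0.235 and -0.114 in the 3 own lists (exact permutation p = 0.25).

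The order of intergenic sites by signal was shared in part between replicates. A record in the ranked list covered the summit of 560, 548 and 555 of the 589 peaks in replicates 1, 2 and 3. Across 529 to 543 sites covered in a pair of replicates, Spearman's rho was 0.714 for replicates 1 and 2, 0.643 for 1 and 3, and 0.664 for 2 and 3. The same pairs gave 0.759, 0.673 and 0.681 across intronic peaks beyond 2000 bp from a TSS, and 0.839, 0.764 and 0.779 across promoter peaks. These values describe sites of the same libraries, whose sequencing depth is unknown.

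Intergenic summits were densest just outside the promoter limit and thinned out with distance. The sequence that could hold them, outside genes and over 500 bp from a TSS, came to 31.3 Mb, or 23.4% of the 6 arms. The peaks averaged 18.8 summits per Mb of it, against 29.6 in introns beyond 2000 bp, 63.7 in introns 500 to 2000 bp from a TSS and 97.2 at promoters. Between 500 and 1000 bp from a TSS the density was 36.4 per Mb, with 120 peaks. It was 27.0 between 1000 and 2000 bp, 21.0 between 2000 and 5000 bp, 14.1 between 5000 and 10000 bp, and 7.14 beyond 10000 bp, where 53 peaks lay. The nearest bin was thus 5.10 times as dense as the farthest.

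The own lists gave the same order. In the nearest bin they held 23.0, 21.8 and 21.5 summits per Mb in replicates 1, 2 and 3, and in the farthest 4.71, 3.91 and 3.91, so the groups of values did not overlap. The ratio was 4.89, 5.59 and 5.51, a mean of 5.33 ± 0.384 (SD, n = 3; exact sign-flip permutation p = 0.25). The median distance of an intergenic peak from a TSS was 2341 bp, and the farthest lay 33049 bp away.

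Density differed with the direction of the neighbouring genes, though distance from a TSS was not held equal between directions. Direction and distance thus cannot be told apart here. Divergent genes, whose starts face the gap, flanked 165 peaks at 24.1 per Mb. Genes in tandem flanked 294 at 17.9 per Mb, and convergent genes, whose ends face the gap, flanked 130 at 17.2 per Mb. The own lists gave a ratio of divergent to convergent of 1.63, 1.44 and 1.34 (mean 1.47 ± 0.148 SD, n = 3, exact permutation p = 0.25). Peaks in divergent gaps had a median signal of 127, beside 111 in tandem and 118 in convergent gaps.

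**Figure D2:**
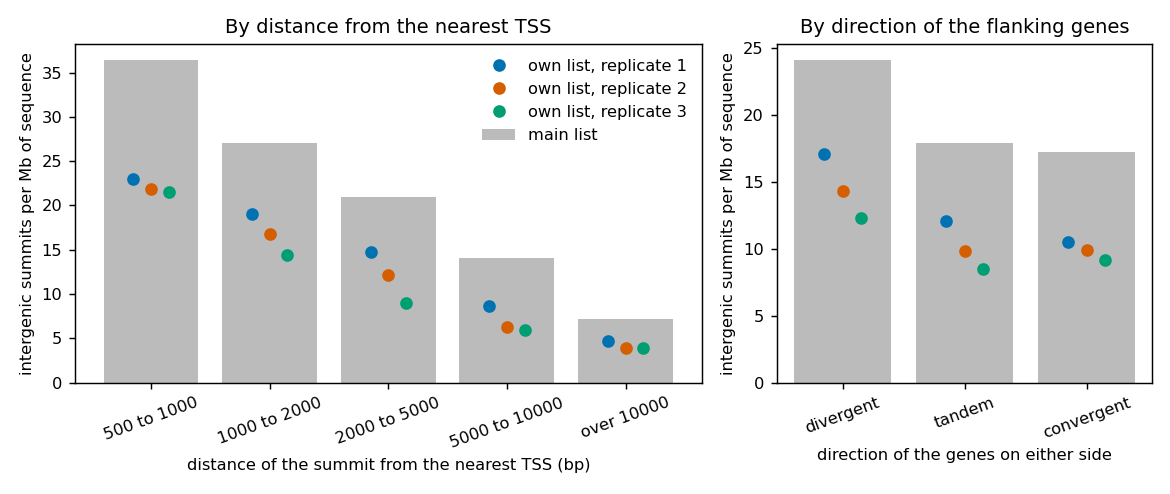
Intergenic summits per Mb of intergenic sequence over 500 bp from a TSS, by distance from the nearest TSS in bp (left) and by the direction of the genes on either side (right). Bars are the main list and points the own list of each replicate; the bars fall from 36.4 to 7.14 per Mb with distance, and the points fall with them.

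Among the large arms, 3L held the most, with 196 peaks at 25.2 per Mb, and 2L had 125 at 21.3 per Mb. X, 2R and 3R were close to each other at 15.2, 15.2 and 14.7 per Mb. The own lists averaged 14.9 ± 2.11 per Mb on 3L and 8.26 ± 1.64 on 3R (SD, n = 3). Chromosome 4 held 4 peaks in 0.0618 Mb of such sequence, too few to rank.

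The nearest TSS belonged to a protein-coding gene for 368 of the 589 peaks and to a gene of the annotation's non-coding RNA class for 159. For 48 it was that of a transposable element insertion and for 12 that of a tRNA gene. An intergenic summit lay within 1000 bp of 1 of 290 tRNA genes and 1 of 269 snoRNA genes. Of 1944 genes named as long non-coding RNAs, 48 had one, or 2.47%, beside 177 of 13945 protein-coding genes, or 1.27%. The rule bars summits within 500 bp of any TSS, which takes up more of this window for short genes than for long ones. These shares are therefore not comparable between kinds of gene.

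The sequence under these peaks had a low G+C centre. Within 100 bp of the summit, intergenic peaks held 35.4% G+C on average, ranging from 16.4% to 63.7%. All windows of this length, tiled over the same intergenic sequence, averaged 41.1%. In the own lists the mean was 34.9%, 33.8% and 34.8%, a difference from the tiled windows of -6.61 percentage points ± 0.638 (SD, n = 3; lower in 3 of 3, exact permutation p = 0.25). The dip was narrow: G+C was 32.9% within 40 bp of the summit, 40.5% from 60 to 140 bp and 44.1% from 200 to 300 bp. Over the own lists these zones held 31.9% ± 0.651, 39.9% ± 0.656 and 44.5% ± 0.208 (SD, n = 3). Promoter peaks dipped too, from 42.8% in the outer zone to 34.6% at the summit, and distant intronic peaks from 43.9% to 32.6%. The zones were chosen after the profile was seen.

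Read the other way, tiled windows of 30 to 35% G+C held a summit most often, in 0.663% of 21127 windows. Windows of 45% and over held one in 0.169% of 52087. The repeat-masked share of the windows was 22.8% for intergenic peaks and 23.4% for the tiled windows.

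The word CAGTG was frequent in these peaks and stood off from the summit. On either strand it occurred within 100 bp of the summit in 316 of the 589 peaks, or 53.7%, against 28.0% of all tiled intergenic windows. Among intergenic peaks of the own lists it stood in 51.6%, 54.6% and 51.7% (52.7% ± 1.70 SD, n = 3). Distant intronic peaks of the main list reached 48.7% and promoter peaks 39.4%. Intergenic peaks of the own lists exceeded promoter peaks by 13.6 percentage points ± 1.51 and distant intronic peaks by 3.49 ± 0.948 (SD, n = 3; higher in 3 of 3, exact permutation p = 0.25 for each). Its longer form ACAGTG occurred in 20.7% of intergenic peaks and 6.90% of tiled windows. Distant intronic peaks held ACAGTG in 21.1% and promoter peaks in 16.5%. Over the own lists, intergenic less distant intronic peaks gave -1.65 points ± 3.18 (SD, n = 3, exact permutation p = 0.5).

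Base composition moved with these shares, so they were also set against tiled windows weighted to the G+C of the peaks. So weighted, CAGTG would be held by 23.8% and ACAGTG by 6.47%, beside the 53.7% and 20.7% of the peaks. For TATAAA the peaks' 33.4% stood beside a weighted 33.5%, although the unweighted tiled share was 22.7%. For AAATAT the peaks' 53.5% stood beside a weighted 47.4%. Within each of 6 bins of G+C, CAGTG stood in a larger share of peaks than of tiled windows, though the gap varied. Under 25% G+C it stood in 25.7% of 35 peaks and 10.9% of tiled windows, from 25 to 30% in 49.5% and 17.3%, and from 30 to 35%, the bin with the widest gap and 182 peaks, in 61.0% and 22.2%. From 35 to 40% it stood in 60.2% and 26.3%, from 40 to 45% in 43.9% and 28.7%, and at 45% and over in 51.5% and 34.9%.

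Of 14 words searched, 12 occurred in a larger share of intergenic peaks than of unweighted tiled windows and 2 in a smaller one, GCCAT at 28.0% against 36.5% and ACACAC at 11.4% against 12.8%. Against the weighted windows the split was 9 larger and 5 smaller. ACACAC turned to larger, against a weighted 10.3%, and GCCAT stayed smaller, against 30.2%. The other 4 turned from larger to smaller: TATAAA at a ratio of 0.997 to the weighted share, TAATTA at 0.898, TTTATTG at 0.883 and TTAAGCT at 0.825. GAGAG, the core of the site of GAGA factor, a regulator of open chromatin, stood in 23.1% of intergenic peaks. Unweighted tiled windows held GAGAG in 20.5% and weighted ones in 16.7%. Its own-list values of 21.5%, 20.3% and 26.0% lay on both sides of the unweighted share and above the weighted one. The weights follow the G+C of the main list. TATCGATA, which holds the core of the site of the promoter and insulator factors DREF and BEAF-32, stood in 5 intergenic peaks, or 0.849%, and in 3.11% of promoter peaks. The share in intergenic less that in promoter peaks of the own lists was -2.67 percentage points ± 0.413 (SD, n = 3; lower in 3 of 3 lists, exact permutation p = 0.25). CAGGTAG, the word of the early embryonic activator Zelda, stood in 9 intergenic peaks, or 1.53%, beside 0.848% of tiled windows and 0.641% of promoter peaks. Its own-list shares of 1.27%, 1.49% and 0.342% lay on both sides of the tiled share. The word TAATTA, read by many homeodomain proteins, stood in 17.7% of peaks, above the 14.7% of tiled windows but below the 19.7% of weighted ones. ACAGTG contains CAGTG, and other words can overlap in a window.

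**Figure D3:**
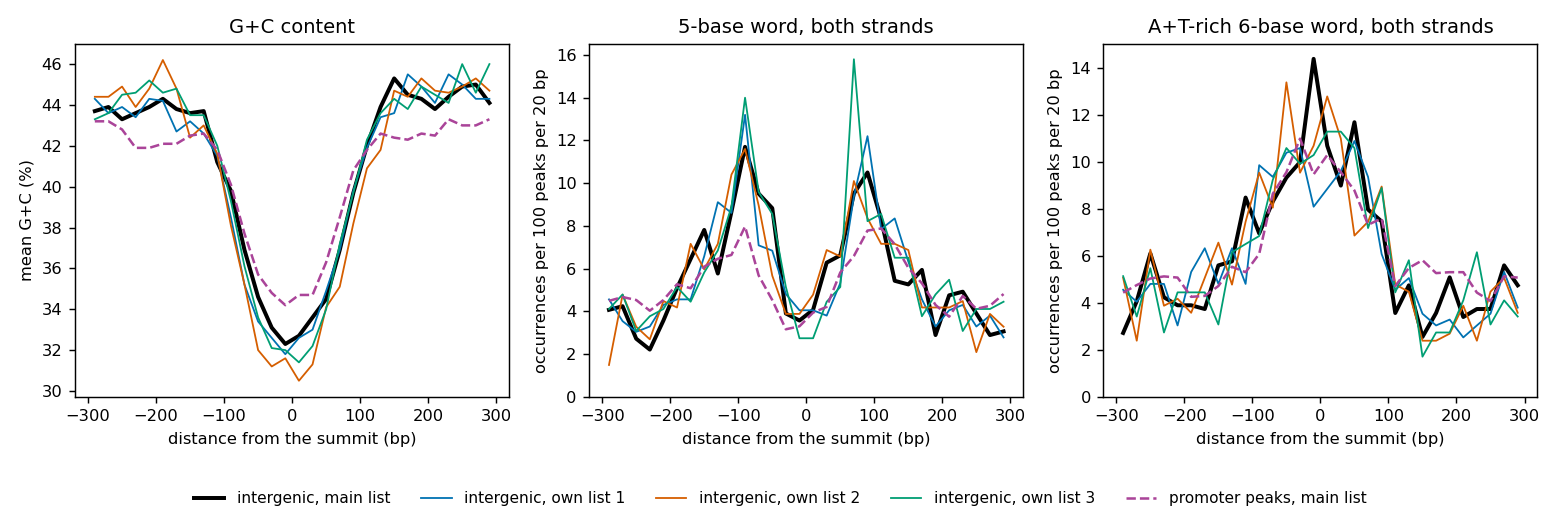
Mean G+C (%), occurrences of CAGTG and occurrences of AAATAT, per 100 peaks and 20 bp on both strands, by distance from the summit in bp. The G+C of intergenic peaks falls from about 44.1% at 200 to 300 bp to 32.3% beside the summit; CAGTG peaks on both sides, at 11.7 per 100 peaks between 80 and 100 bp to the left, and AAATAT is more frequent within 60 bp of the summit than at the outer edges.

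The position of CAGTG followed a pattern that the other classes of peaks had too. Per 20 bp, CAGTG reached 11.7 occurrences per 100 intergenic peaks between 80 and 100 bp left of the summit and 10.5 between 80 and 100 bp right of it. In the 20 bp on either side of the summit it was at 3.57 and 4.07. At 280 to 300 bp from the summit it had returned to 4.07 on the left and 3.06 on the right. From 60 to 140 bp, 31.9% of the peaks held the word on the left and 31.1% on the right, 51.1% on at least 1 side and 11.9% on both. Pieces of tiled windows of the same 81 bp held it in 12.8%. In the own lists of all 3 replicates the highest bin of CAGTG on the left was also 80 to 100 bp. On the right it was 80 to 100 bp in replicate 1, but 60 to 80 bp in replicates 2 and 3, at 10.1 and 15.8. The share on at least 1 side was 54.4%, 53.7% and 54.5% in the own lists of replicates 1, 2 and 3. In distant intronic peaks of the main list that share was 49.2%, and in promoter peaks it was 42.4%. The distant intronic peaks held 10.2 and 9.87 occurrences per 100 peaks between 80 and 100 bp left and right of the summit. Their highest bin on the left was 60 to 80 bp, at 10.7. AAATAT was more frequent toward the summit, with 14.4 occurrences per 100 intergenic peaks in the 20 bp left of it, against 2.72 at the left outer edge and 4.75 at the right. The own lists showed a smaller contrast, with 8.10, 10.7 and 10.3 left of the summit and 4.56, 5.07 and 5.14 at the left edge. In the own list of replicate 1 its highest bin was 40 to 60 bp right of the summit, and in that of replicate 2 it was 40 to 60 bp left.

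Longer words around CAGTG also had a direction. They were found by looking at these peaks, so the counts are descriptions and were not tested. Of 90 occurrences of TACACTG between 40 and 160 bp from an intergenic summit, 83 read from 5′ to 3′ toward the summit and 7 away from it. For TGCACTG 89 of 103 read toward it, for CACTGAG 71 of 75, for TACAGTG 58 of 73 and for CAGTGGG 40 of 54. TGCAGTG did so in 14 of 46. The median distance of the TACACTG words that read inward was 84 bp. Within 40 bp of the summits TACACTG occurred 13 times.

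The first 4 of these words were also pooled. They were picked because they read inward in these same peaks, so the excess of inward over outward words, and over other classes, can follow in part from that choice. At least 1 of these words, which can overlap each other, read inward in 208 intergenic peaks, or 35.3%. A smaller number, 36 or 6.11%, held 1 that read outward, and 43 held inward words on both sides. Over the own lists the inward share was 39.2%, 37.3% and 34.2%, a mean of 36.9% ± 2.52, and the outward share 6.45% ± 1.19 (SD, n = 3). Distant intronic peaks held inward words in 29.3% and outward ones in 8.43%, and promoter peaks in 16.2% and 7.74%. Within 100 bp of the summit TACACTG stood in 11.2% of intergenic peaks and 1.83% of tiled windows, and CACTGAGA in 7.30% and 0.736%.

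The share with CAGTG and the G+C content are given by place and strength. By distance from a TSS, CAGTG stood in 45.8% of the 120 peaks at 500 to 1000 bp, 49.6% at 1000 to 2000 bp, 55.1% at 2000 to 5000 bp, 64.9% of the 94 at 5000 to 10000 bp and 56.6% of the 53 beyond, so the farthest bin did not continue the order. It stood in 66.7% of the 69 peaks on X and in 50.5% of the 196 on 3L. Mean G+C was between 34.7% and 36.3% in all 5 bins of distance. By strength, G+C was 33.1% in the strongest quintile and 40% in the weakest. From the strongest quintile to the weakest, 50.8%, 56.8%, 51.7%, 65.3% and 43.6% held CAGTG, with no steady order. The 45 peaks of signal under 50 are all in the weakest.

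The 25 strongest intergenic peaks that overlapped every own list ranged in signal from 354 to 1314. Of these, 14 held CAGTG within 100 bp of the summit. The nearest TSS was that of a protein-coding gene for 16, of a non-coding RNA for 7 and of a transposable element for 2. In 7 it lay under 1000 bp away and in 8 over 5000 bp.

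The strongest of all lay on 2R, from 13035173 to 13035488, 27434 bp from Su(z)2 and 9350 bp from CG13323. An INE-1 transposable element insertion lay nearer, at 5766 bp. Su(z)2 encodes a Polycomb group protein, one of the factors that keep developmental genes silent. Its signal was 1314 in the main list, where it ranked 14, and 510, 422 and 370 in the ranked lists of replicates 1, 2 and 3, where it ranked 17, 16 and 16. In each list it thus stood among the top 17 records. Other Polycomb group genes flanked peaks among these 25. Psc, the paralogue of Su(z)2, lay 7774 bp from the peak of rank 15 (2R, 12958080 to 12958348), with signals of 181, 141 and 165. The paralogous genes ph-d and ph-p flanked the peak of rank 17 (X, 2123951 to 2124315), 827 bp and 2097 bp away, with signals of 174, 162 and 125. These genes were named from the flanks of the 25 peaks, and no list of Polycomb group genes was counted. Whether the group lies beside intergenic peaks more often than other genes was therefore not tested.

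The peak of rank 2 (3L, 11318794 to 11319120) lay between the protein-coding genes CG7573 and CG6168, with signals of 364, 284 and 241. Rank 3 (3R, 16222343 to 16222653) lay 901 bp from the non-coding gene lncRNA:CR45643. Its flanking protein-coding genes were tara, 3157 bp away, which encodes a transcriptional coregulator, and mtSSB, 17244 bp away, a mitochondrial DNA-binding protein. Its signals were 391, 251 and 253, above those of the peak of rank 2 in the lists of replicates 1 and 3 and below it in that of replicate 2. Rank 8 (2R, 22802843 to 22803112) lay 551 bp from the end of CycB, which encodes a mitotic cyclin, and 790 bp from blw, which encodes a subunit of ATP synthase. Its signals were 295, 146 and 179.

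Rank 12 (3R, 14053460 to 14053719) lay 3342 bp from foxo, the forkhead factor of insulin signalling, with signals of 263, 156 and 141. Rank 16 (3R, 8355589 to 8355878) lay between Atg13, an autophagy gene, and stck, which encodes an adhesion adaptor, with signals of 194, 144 and 132. Rank 18 (X, 1277065 to 1277312) lay 1884 bp from Atf3, a bZIP transcription factor, with 165, 150 and 158. Rank 25 (2L, 3832387 to 3832612) lay between slp1 and slp2, 5392 bp and 4349 bp away, with 124, 109 and 123. Within each list the peak beside Atf3 had a higher signal than that between slp1 and slp2. Beside CG7560, the peak of rank 13 had signals of 192 and 196 in replicates 1 and 2, above the Atf3 peak in those lists, and lay below it in the list of replicate 3.

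**Figure D4:**
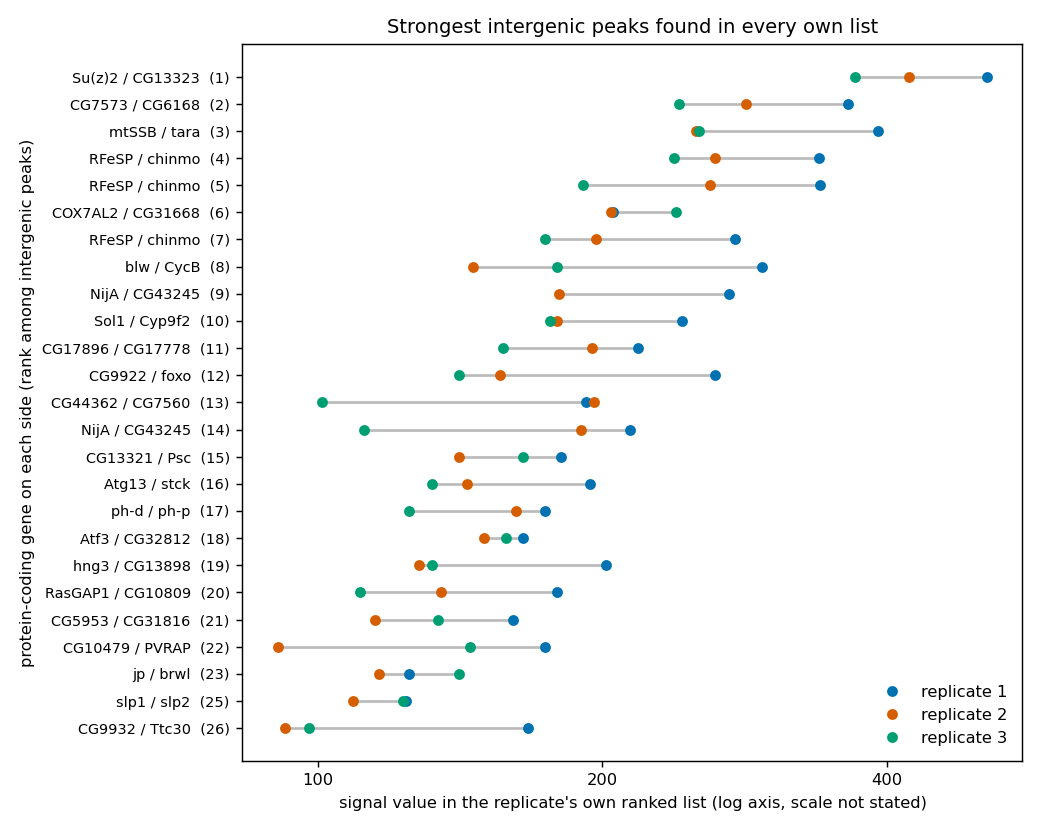
Signal value (log axis) in each replicate's own ranked list for the 25 strongest intergenic peaks that overlapped every own list, labelled by the protein-coding gene on each side and the rank among the 589. Each list has its own scale, so points of 1 colour are to be compared; they run from 124 to 510 in replicate 1, 90.8 to 422 in replicate 2 and 97.9 to 370 in replicate 3. The peak of rank 9 has no replicate 3 value because no ranked record of that replicate covered its summit.

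Intergenic peaks gathered in some gaps. After merging, the 540 peaks fell into 368 gaps between protein-coding genes, 274 of which held 1 peak. The gap with the most was the 47937 bp between hng3 and CG13898 on 3L, with 11 peaks of signal 37.9 to 459, of which 4 overlapped every own list and 9 held CAGTG. The 27292 bp between CG44362 and CG7560 on 3L held 9, of which 5 overlapped every own list. The next gap, 37097 bp between RFeSP, a subunit of mitochondrial complex III, and chinmo, a zinc finger factor of neuronal and germline identity, held 8.

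Among the 5 gaps with the most peaks, the chinmo gap had the highest signals. Its 8 peaks ran from 141 to 818, and 7 of them overlapped every own list. Some gaps with 5 peaks were high too. Between NijA and CG43245 they ran from 146 to 614 and between scyl and Dyro from 154 to 342, each with 4 in every own list. Between noc and CG33648 they ran from 74.7 to 344, with 2 in every own list. The peak of rank 4, 18423 bp from chinmo, had signals of 339, 263 and 238 in replicates 1, 2 and 3. The peak of rank 5, 12463 bp away, had 340, 260 and 191, and the peak of rank 7, 7834 bp away, had 276, 197 and 174. Within each replicate's list the peak of rank 7 was the weakest of these 3. The nearest TSS of each was that of a non-coding gene. It was lncRNA:CR44603 at 6814 bp for rank 4, and lncRNA:CR45695 at 8368 and 3739 bp for ranks 5 and 7. The ranks of the 3 peaks were 66, 63 and 116 in replicate 1, 68, 71 and 146 in replicate 2, and 62, 104 and 133 in replicate 3. The gap between CG6168 and CG6163 on 3L also held 8 peaks, with signals of 27.3 to 187 and 3 in every own list. The gap between Ids and sty, an inhibitor of receptor tyrosine kinase signalling, held 6.

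Among gene lists, developmental transcription factors had the most intergenic peaks beside them. A protein-coding gene was counted when it was the nearest on either side of an intergenic peak. Of 13945 such genes 700 were, or 5.02%. This share grows with the length of the gap beside a gene, so densities per Mb of the flanking intergenic sequence are given too. The lists were chosen with earlier results of these data known, and are described without a test.

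Developmental transcription factors other than homeobox genes had 31 of 106 members beside a peak, or 29.2%. The 60 peaks beside them came to 36.0 per Mb, against 18.8 over all such sequence. The own lists gave 19.2 ± 3.75 per Mb, beside 10.9 ± 1.65 over all (SD, n = 3). The strongest lay between slp1 and slp2, which pattern the segments, at 359. Next came noc, a zinc finger gene of the eye and appendages, with 10 peaks of up to 344, or 8 after merging. Doc1, a T-box gene of the dorsal embryo, followed with 4 of up to 321. Hox and homeobox genes had 29 of 78 members beside a peak, or 37.2%, yet at 20.9 per Mb their gaps were close to the whole. Of these, vvl, a POU-domain gene of tracheal and neural cells, had 5 peaks of up to 347, C15, a leg patterning gene, 2 of up to 338, and ems, a head gap gene, 4 of up to 226. B-H1 and B-H2 shared 1 of 192, which lay 66995 bp from B-H1 and 6308 bp from B-H2. The peak of 338 beside C15 lay 7541 bp from it and 573 bp from sp3.

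Secreted signals had 9 of 54 members beside a peak, or 16.7%, at 19.2 per Mb. The gap between Wnt4 and wg, both Wnt ligands, held 3 peaks of up to 137, dpp, the BMP ligand, had 1 of 121 and Ser, a Notch ligand, 1 of 119. Neuronal cell-surface genes had 14 of 86, at 15.4 per Mb, with dpr20 at 221, 18w at 191, hbs at 165 and Toll-6 at 164. Ion channels and transmitter receptors had 7 of 79, at 15.5 per Mb, led by the calcium channel gene Ca-alpha1T at 264. Next were nan at 216, ppk at 197 and nAChRalpha7 at 153.

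Cuticular protein genes had 11 of 123 beside a peak, with 10 peaks at 35.4 per Mb in 0.282 Mb of sequence. Their density in the own lists was 13 ± 2.04 per Mb, beside the 10.9 of all such sequence. Cpr65Eb and Cpr65Ec shared a peak of 181, Cpr76Ba had 1 of 178 and Cpr51A 1 of 167. Chemoreceptor genes had 8 of 180, at 10 per Mb, led by Gr89a at 246, then Gr93a and Gr93b at 179 and Gr93d at 165. Cytoplasmic ribosomal protein genes had 3 of 93 beside a peak, at 7.26 per Mb, among them RpL17 at 110. None of 117 histone genes was the nearest protein-coding gene of an intergenic peak, in sequence of 0.0261 Mb.

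**Figure D5:**
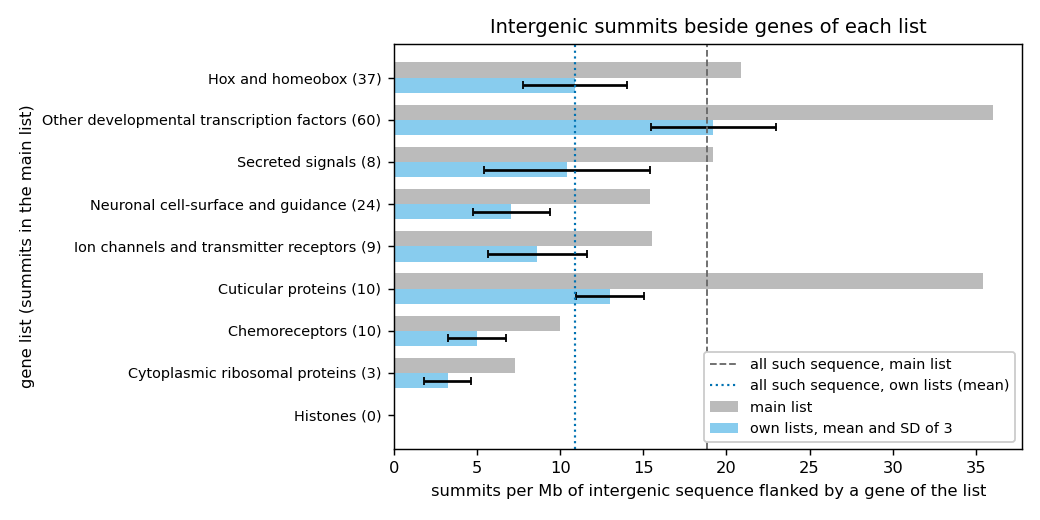
Intergenic summits per Mb of the intergenic sequence that a gene of each list flanks, in the main list and as the mean and SD of the 3 own lists, with the number of summits in the main list beside each name. Dashed and dotted lines give 18.8 and 10.9 per Mb over all such sequence; the list of other developmental transcription factors lies at 36.0 and 19.2.

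The 500 bp limit cut through a continuous range of distances. The 10 intergenic peaks nearest to a TSS lay 503 to 521 bp away, with a median signal of 105 and a range of 9.24 to 571, and 4 overlapped every own list. The 10 summits just inside the limit and outside genes lay 482 to 500 bp away, with a median of 138 and a range of 28.8 to 270, and 5 overlapped every own list.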

How the data were processed

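Peak lists on assembly dm6, per the labels, were used as the authors deposited them. The signal values, the score that follows the global irreproducible discovery rate (IDR), and −log10 of the global IDR are the authors' deposited values. How reads were aligned and peaks called is not given in the sources used here. The lists hold no read totals, so the depth is not known and counting intervals cannot be given. Replicates are biological, per the labels. Summits were classified with the Ensembl annotation, and sequence came from RefSeq (same assembly), in which lower case marks repeats. Python 3.11.15, numpy 2.4.6, pandas 2.3.3 and scipy 1.17.1 were used. Words were searched on both strands in windows reaching 100 bp to either side of the summit, and intergenic sequence was tiled into windows of the same span. Contrasts were compared over the 3 own lists with exact two-sided sign-flip permutation tests. Scripts were tested on simulated data. The members and lists were chosen with earlier results of these data known. Peaks named are the 25 strongest in every own list, up to 4 genes a list, the 5 gaps with the most peaks, and summits beside the 500 bp limit. Further gaps with 5 peaks were added for comparison. Alternatives were merged summits, other lists, windows, limits and leaving out replicates. In the gene lists, 3 entries that did not belong to their list were removed after the values were seen.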

Additional observations from a re-analysis of the deposited data

How the results depend on the processing

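No paired analysis was possible because there was 1 group of samples, so no groups could be matched by replicate number (classes of peaks were contrasted within each replicate's own list). The number of intergenic peaks ran from 469 to 789 over the other lists and rules, but was 307 with a global IDR of 0.001 at most. The share in every own list was 18.7% with 50% reciprocal overlap, 56.0% at that IDR, and 34.0% to 39.9% over the other 2 own lists. The difference in median log2 signal from distant intronic peaks, -0.023, was 0.047 at that IDR, -0.097 in the pair list of 4231 peaks, and -0.020 to 0.017 over the own lists without each replicate in turn, positive without replicate 3. The share of own lists was 9% with a limit of 1000 bp. The ratio of nearest to farthest density was 4.13 per Mb not repeat-masked and 5.20 to 5.55 without each replicate. The ratio of the densest to the least dense large arm, 1.72, was 1.96 at the stricter IDR, 1.93 in the own lists and 1.88 to 2.00 without each. G+C was 33.2% within 50 bp of the summit, 39.5% within 200 bp, 34.5% in the own lists and 34.3% to 34.9% without each. The repeat-masked share was 24.6% within 50 bp, 19.5% within 200 bp, 23.3% with merged summits and 22.6% to 22.9% without each. Within 50 bp, the GAGAG share less that of tiled windows not weighted by G+C was -0.494 points, against a gain within 100 bp. CAGTG stood within 50 bp in 21.2% of peaks and 15.1% of such unweighted windows. The zone of CAGTG, widened to 40 to 160 bp, held it in 61.8% of peaks. Setting transposable elements aside as genes, the zones and the longer words were chosen after seeing the data. The causes of these shifts were not tested.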

Other observations

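The 14 summits that the annotation's transposable element insertions kept out of the intergenic class had signals of 4.13 to 276, with a median of 108. Of these, 11 lay inside an insertion and 3 only within 500 bp of the start of one, and 4 overlapped every own list.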
